A study of Homo sapiens with 6 samples.

Results

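Early targets of all-trans retinoic acid (ATRA), 10 genes in all, were followed through 72 h of treatment: ASB2, PRAM1, VSIR, LRG1, LFNG, TOGARAM2, INAVA, LAMB3, PLAAT4 and HIC1. They are 10 of the 19775 genes that have a probe set of their own, and they were chosen from early rises in these same data or as known ATRA targets, so their differences from untreated cells are given as a description with no test. All 14 probe sets annotated to one of these genes alone were used, and all 10 genes passed the filter on low values, as did 13594 genes in all. The cells were NB4, a line from human acute promyelocytic leukaemia, in which the receptor gene RARA is fused to PML. The arrays held cells given 1e-06 M ATRA for 4, 12, 24, 48 or 72 h and untreated cells of the same line at 0 h, which makes 6 arrays with no replicate of any time. Hours in ATRA were also hours in culture, so the effects of both cannot be told apart, and every ATRA time is set against the same untreated array.

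ATRA binds retinoic acid receptors, which sit with retinoid X receptors on paired DNA hexamers of the type AGGTCA. Without ligand, the PML-RARA fusion recruits corepressors to such sites in promyelocytic leukaemia cells. ATRA releases this repression and leads to breakdown of the fusion protein, and the cells mature toward neutrophils. Genes that respond first are commonly taken as close to the receptor, and genes that respond later as further down the chain, although timing alone does not show direct regulation.

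Promoters from RefSeq (build GRCh38.p14, 250 bases before to 50 bases after a gene's start) were found for 7 of the 10 genes, 12 promoters in all. PRAM1, HIC1 and PLAAT4 had no entry. The receptor hexamer was searched on both strands as AGGTCA and as 3 forms that differ from it, namely AGTTCA, then GGGTCA, and also GGTTCA. At least 1 match was present in 4 of the 12 promoters (33.3%), against 38.6% of all 35116 promoters. Paired hexamers in the same direction with 1, 2 or 5 bases between them were found in none of the 12, against 0.131%, 0.0399% and 0.0883% of all promoters. The hexamer of the myeloid factor PU.1, searched as GAGGAA on both strands, was in 5 of the 12, against 27.9% of all. The 4 promoters with a receptor hexamer are shown, with the matches in capitals. Their genes were all more than 10-fold higher at 4 h. So were LFNG (16.5-fold) and VSIR (16.0-fold), whose promoters had no match, and the other ASB2 and INAVA promoters had none either. No link between a match and the rise at 4 h is read from this. In ASB2 (chr14:93956998-93957297, minus strand) the match starts at position 44, counted from the gene's start with positions before it negative. In LRG1 (chr19:4539987-4540286, minus strand) the matches start at positions -192 and -138. In INAVA (chr1:200894650-200894949, plus strand) and TOGARAM2 (chr2:28981048-28981347, plus strand) they start at positions -76 and -150.
ASB2: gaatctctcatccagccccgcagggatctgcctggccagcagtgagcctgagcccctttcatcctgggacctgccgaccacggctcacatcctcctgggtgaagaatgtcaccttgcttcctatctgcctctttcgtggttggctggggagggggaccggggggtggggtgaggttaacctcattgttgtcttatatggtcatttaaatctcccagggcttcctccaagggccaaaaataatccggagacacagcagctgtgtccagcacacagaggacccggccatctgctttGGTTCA
LRG1: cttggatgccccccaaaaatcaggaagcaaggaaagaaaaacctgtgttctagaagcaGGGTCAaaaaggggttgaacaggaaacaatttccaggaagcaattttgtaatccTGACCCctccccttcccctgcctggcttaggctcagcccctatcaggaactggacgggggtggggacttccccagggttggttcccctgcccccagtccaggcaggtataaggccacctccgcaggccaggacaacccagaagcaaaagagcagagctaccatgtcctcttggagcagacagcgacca
INAVA: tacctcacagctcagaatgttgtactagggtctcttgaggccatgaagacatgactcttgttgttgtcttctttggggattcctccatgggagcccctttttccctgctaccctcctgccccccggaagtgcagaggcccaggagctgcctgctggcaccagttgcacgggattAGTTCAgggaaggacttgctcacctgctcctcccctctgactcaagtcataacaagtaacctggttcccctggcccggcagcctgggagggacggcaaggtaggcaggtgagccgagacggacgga
TOGARAM2: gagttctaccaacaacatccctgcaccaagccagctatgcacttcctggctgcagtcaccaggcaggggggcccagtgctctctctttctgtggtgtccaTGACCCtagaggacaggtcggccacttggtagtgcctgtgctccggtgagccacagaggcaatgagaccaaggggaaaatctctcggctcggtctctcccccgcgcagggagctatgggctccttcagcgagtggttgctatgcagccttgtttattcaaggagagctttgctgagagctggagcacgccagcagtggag
A match is a string of letters in this window and is not shown to be a binding site.

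The median log2 value of an array was 3.64 to 3.69. The spiked bioC control averaged 8.01 on the untreated array and 8.11 on the 12 h array, against 6.88 to 7.17 on the other 4 arrays. The probe set for the 3' part of 18S ribosomal RNA read 9.98 on the 12 h array and 5.80 to 6.80 on the others. The probe set for the 5' part of 28S ribosomal RNA read 6.77, 6.33, 10.32, 7.48, 9.51 and 9.63 from 0 to 72 h, so the 12, 48 and 72 h arrays, on which the late steps and the INAVA drop rest, stood above the other 3. Many of the comparisons below therefore also differ in these controls, whose part in the results was not tested. MPO, the myeloperoxidase of primary granules, had log2 levels of 12.90, 12.59, 12.09, 11.78, 11.43 and 10.92 from 0 to 72 h. CSF3R, the receptor of granulocyte colony-stimulating factor, was 14.5-fold higher at 72 h than in untreated cells. Of 8 measured promyelocyte and myeloid markers 6 were kept, and ELANE and KIT were below the filter. The kept markers did not move together. At 72 h CSF3R and SPI1 (2.15) were 2-fold or more higher and MPO and CTSG (-2.42) lower, against 10.9% and 12.2% of all kept genes. PRTN3 (0.31) and AZU1 (-0.27) were within 2-fold at 72 h, and the list median was 0.02. All 6 monocyte and macrophage markers (CD14, MRC1, MSR1, VCAN, C1QA and C1QB) were below the filter on every array. Of the other cell type markers 2 of 3 B cell genes were kept (CD79A at 1.46 and CD79B at -1.39 at 72 h), and the first was higher and the second lower than in untreated cells. All 5 T and NK cell genes, both measured erythroid genes and 4 of 5 endothelial and fibroblast genes were kept. None of these 3 lists had a gene past 2-fold at any time, against 10.9% higher and 12.2% lower of all kept genes at 72 h. Several lay near the filter level of 3.66, with highest values of 3.72 for ALAS2, 3.69 for COL1A2, 3.89 for CD3E and 4.07 for CD3D. GNLY passed the level only at 72 h, while NKG7 reached 9.11 and PECAM1 6.89. Passing the filter is thus not read as expression.

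In the first 4 h the genes fell into a set of 7 that stepped up at once and a set of 3 that did not. ASB2, PRAM1, VSIR, LRG1, LFNG, TOGARAM2 and INAVA exceeded untreated cells by 10.3- to 16.5-fold at 4 h. PLAAT4 was at least 1.59-fold higher, HIC1 1.23-fold, and LAMB3 differed from untreated by -0.04 on the log2 scale, so none of these 3 genes reached 2-fold at 4 h. With the shift on all hybridisation controls, taken by their median, PLAAT4 (1.65) and HIC1 (1.01) pass 2-fold. With the shift without bioC, taken by the mean of the other controls, HIC1 turns to -0.11. The name early target thus depends on the scaling for both genes and is not borne out for LAMB3. Of all 13594 kept genes 1.74% (236) reached 2-fold above untreated at 4 h, and since the genes were chosen on this difference nothing is read from their count. Genes were counted at 2-fold, a log2 difference of 1, and the genes nearest that line were LRG1 at 3.36 inside it and PLAAT4 at 0.94 outside it. In bulk RNA, more maturing cells and more RNA per cell cannot be told apart.

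**Figure D1:**
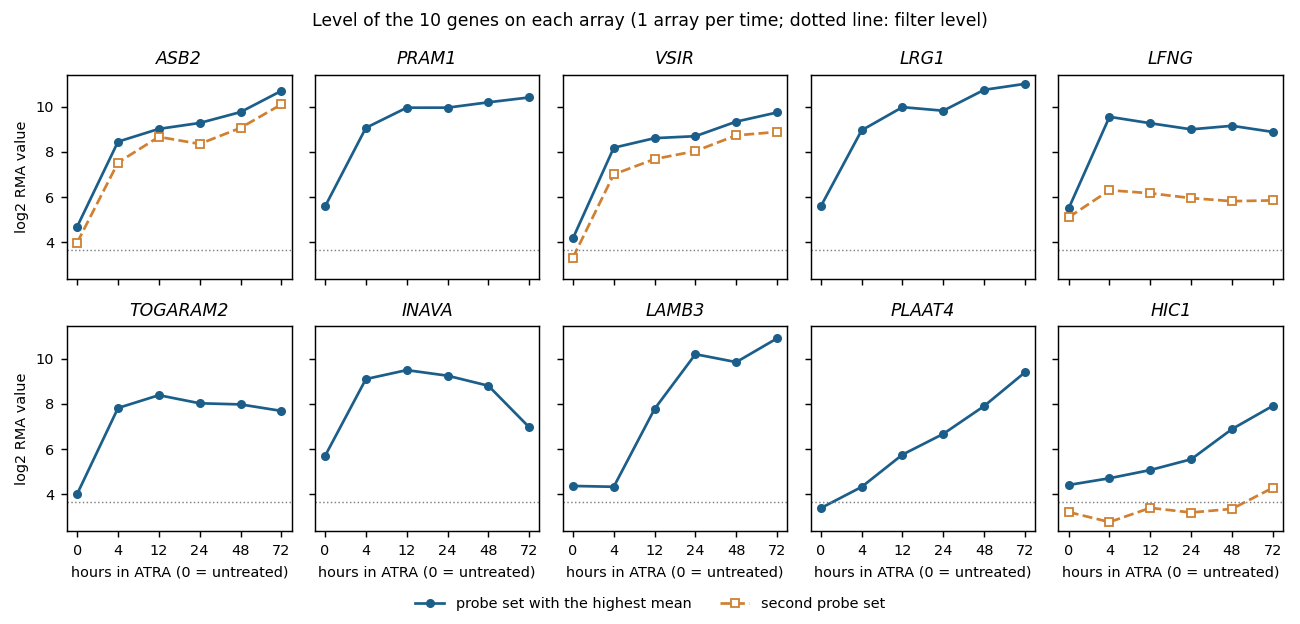
Log2 RMA value (y axis) against hours in ATRA (x axis, times evenly spaced, 0 is untreated) for each gene, 1 array per point. Filled circles are the probe set that represents the gene, open squares a second probe set, and the dotted line is the filter level of 3.66. The upper row, TOGARAM2 and INAVA jump between 0 and 4 h, LAMB3 jumps between 4 and 24 h, PLAAT4 and HIC1 climb over the whole course, and INAVA drops between 48 and 72 h.

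Of the 7 immediate genes 4 stood 2-fold or more higher again at 72 h than at 4 h. ASB2, the substrate-recognition subunit of a cullin ubiquitin ligase that targets filamins, had log2 levels of 4.70, 8.45, 9.01, 9.28, 9.76 and 10.69 at 0, 4, 12, 24, 48 and 72 h. Each array was higher than the one before, and the gene was 13.5-fold above untreated at 4 h and 63.7-fold at 72 h. Its second probe set read 4.00, 7.53, 8.66, 8.35, 9.06 and 10.10, with the one step down between 12 and 24 h, and was 68.6-fold above untreated at 72 h.

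PRAM1, a leukocyte adaptor protein first described as a gene held down by PML-RARA, read 5.59, 9.06, 9.95, 9.95, 10.19 and 10.40. It was 11.1-fold above untreated at 4 h and 28.1-fold at 72 h, and its arrays from 12 to 72 h spanned only 0.45 on the log2 scale. VSIR, the immune checkpoint receptor VISTA, read 4.18, 8.18, 8.61, 8.69, 9.34 and 9.74. It was 16.0-fold above untreated at 4 h and 47.1-fold at 72 h, and its second probe set (3.33, 7.01, 7.68, 8.03, 8.73 and 8.88) was at least 10.2-fold and at least 37.2-fold above untreated at these times. Where a value below the filter level of 3.66 enters a fold, it was set to 3.66 and the fold is given as at least that size. LRG1, a secreted leucine-rich glycoprotein stored in neutrophil granules, read 5.59, 8.95, 9.97, 9.82, 10.74 and 11.00. It was 10.3-fold above untreated at 4 h and 42.6-fold at 72 h, with a step of 1.02 between 4 and 12 h and of 0.92 between 24 and 48 h.

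The other immediate genes, LFNG, TOGARAM2 and INAVA, held their 4 h level or lost it. LFNG, a Golgi glycosyltransferase that adds sugars to Notch receptors, read 5.50, 9.55, 9.26, 9.00, 9.15 and 8.88, and was highest at 4 h. It was 16.5-fold above untreated at 4 h and 10.4-fold at 72 h. Its second probe set (5.11, 6.31, 6.17, 5.96, 5.82 and 5.86) was also highest at 4 h, but there it was 2.29-fold above untreated, so the probe sets share the peak at 4 h and disagree on its size. From 24 to 72 h the second probe set was 1.64- to 1.80-fold above untreated. TOGARAM2, a protein with TOG domains of the kind that bind tubulin, read 4.02, 7.81, 8.38, 8.02, 7.97 and 7.69, with its highest value at 12 h. It was 13.9-fold above untreated at 4 h, 20.5-fold at 12 h and 12.7-fold at 72 h.

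Of the 10 genes INAVA had the only drop past 2-fold in any interval. This protein, which binds cytohesins and takes part in innate receptor signalling and epithelial junctions, read 5.70, 9.09, 9.49, 9.24, 8.80 and 6.96. It was 10.5-fold above untreated at 4 h, 13.8-fold at 12 h, 8.57-fold at 48 h and 2.40-fold at 72 h. The 72 h array was lower than the 48 h array by a log2 difference of -1.83, and 33.4% of the highest log2 rise was left. This drop rests on the 72 h array alone: with 48 h as the last time, no gene of the 10 was 2-fold or more below its 4 h level.

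The 3 genes without a step at 4 h took separate courses. LAMB3, the beta chain of the basement membrane protein laminin-332, read 4.37, 4.34, 7.77, 10.19, 9.84 and 10.89. Its jump came between 4 and 24 h, in steps of 3.44 and 2.42, and it was 10.6-fold above untreated at 12 h, 56.4-fold at 24 h and 91.6-fold at 72 h. PLAAT4, a phospholipase and acyltransferase also known as retinoic acid receptor responder 3, read 3.39, 4.33, 5.76, 6.67, 7.90 and 9.39. Its 5 steps were 0.94, 1.43, 0.92, 1.23 and 1.49, the first of them 0.67 with the untreated value set to the filter level, and it ended at least 53.0-fold above untreated. HIC1, a zinc finger repressor, read 4.42, 4.71, 5.08, 5.55, 6.88 and 7.91, with steps of 1.33 and 1.03 after 24 h. It was 5.53-fold above untreated at 48 h and 11.3-fold at 72 h. Its second probe set was below the filter until 72 h, when it read 4.29, at least 1.55-fold above untreated.

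By later times the whole group was raised. At 12 h 9 of the 10 genes were 2-fold or more above untreated, against 2.30% of all kept genes, and the exception was HIC1 at 1.58-fold. All 10 were at 24, 48 and 72 h, against 3.35%, 5.83% and 10.9% of all kept genes, and the choice of the genes bears on these counts too. The count is 9 at 24 h and at 72 h with the shift without bioC, where INAVA is at 0.70 at 72 h, and 9 at 24 h with the mean of all probe sets. The second probe sets of LFNG (from 24 h on) and HIC1 (at 24 and 48 h) were under 2-fold. The median difference over the 10 genes was 3.43, 4.05, 4.11, 4.55 and 5.11 from 4 to 72 h, while that of all kept genes lay between -0.06 and 0.03.

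Between successive arrays the steps were spread over different genes. LAMB3, PLAAT4 and LRG1 were 2-fold or more higher at 12 h than at 4 h, against 1.43% of all kept genes. LRG1, at 1.02, was close to the line. LAMB3 alone was 2-fold or more higher at 24 h than at 12 h, against 0.846% of all genes. HIC1 and PLAAT4 were higher at 48 h than at 24 h (1.74% of all genes), and HIC1, LAMB3 and PLAAT4 at 72 h than at 48 h (4.74%). INAVA was 2-fold or more lower at 72 h than at 48 h, against 2.14% of all genes. Shifting the arrays to equal hybridisation controls leaves 1 gene higher at 72 h than at 48 h in place of 3.

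**Figure D2:**
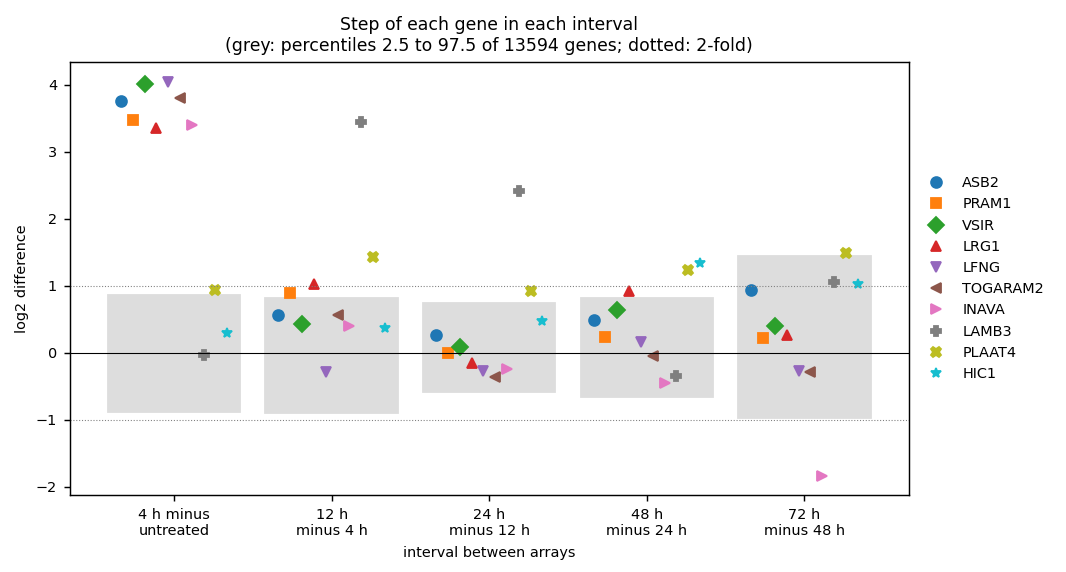
Log2 difference of each gene (y axis, symbols) between successive arrays (x axis). The grey boxes span percentiles 2.5 to 97.5 of the 13594 kept genes and the dotted lines mark 2-fold. The 7 immediate genes lie far above the box at 4 h, LAMB3 above it in the next intervals, and INAVA below it at 72 h against 48 h.

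Over 4 to 72 h, 7 of the 10 genes ended 2-fold or more higher, against 10.1% of all kept genes: ASB2, PRAM1, VSIR, LRG1, LAMB3, PLAAT4 and HIC1. LFNG and TOGARAM2 stayed within 2-fold of their 4 h value, at -0.67 and -0.13 on the log2 scale. INAVA was lower by more than 2-fold (-2.13), against 10.4% of all genes. For the 7 immediate genes these classes held 4, 2 and 1 genes. Over all 236 genes past 2-fold at 4 h they held 95 (40.3%), 112 (47.5%) and 29 (12.3%). By the probe set that represents each gene, all 7 immediate genes were 2-fold or more above untreated at all 5 times, with the exceptions for INAVA and LFNG given above under the other scaling and the second probe set, as were 120 of the other 229 genes (52.4%), whose median rise at 4 h was smaller (1.34, against 3.75 for the 7).

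How complete the response was at 4 h depends on the scale. On the log2 scale LFNG had its whole rise at 4 h, INAVA 89.6% of its highest rise, TOGARAM2 87.0%, PRAM1 72.1%, VSIR 72.0%, ASB2 62.6% and LRG1 62.1%. On the linear scale, where a doubling late in the course adds more signal than a doubling early on, the share was 74.2% for INAVA, 65.9% for TOGARAM2, 37.2% for PRAM1, 32.5% for VSIR, 22.3% for LRG1 and 19.9% for ASB2. Most of the linear rise of ASB2, LRG1, VSIR and PRAM1 was thus added after 4 h. PLAAT4 had 15.6% of its highest log2 rise at 4 h and HIC1 8.51%.

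**Figure D3:**
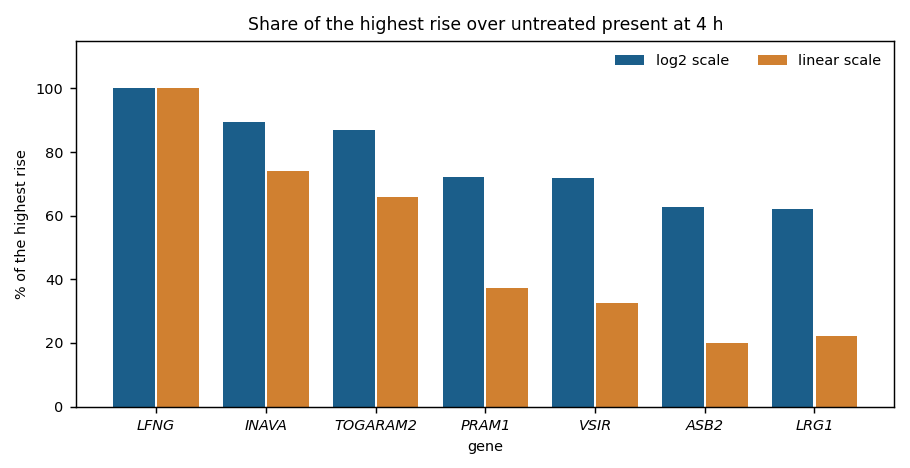
Share of each gene's highest rise over untreated that was present at 4 h (y axis, percent), for the 7 immediate genes (x axis), as differences of log2 values (blue) and of linear values (orange). LFNG is at 100% on both scales, while ASB2 is at 62.6% on the log2 scale and 19.9% on the linear scale.

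The course after the first step was tested on the 12, 24, 48 and 72 h arrays, whose values a choice by the 4 h difference does not use. Earlier results from these arrays were known when all 10 genes were chosen, so the test is not shown to be independent of the choice. A line on time order was fitted with limma across all kept genes, and 573 genes rose (4.22%) and 116 fell (0.853%) at a Benjamini-Hochberg adjusted p under 0.05. The SE, interval and p-value of a slope come from the scatter of single arrays about a straight line, with information shared across genes. They do not measure the spread between replicate cultures, and a course that bends away from a line also widens them. Of the 7 immediate genes ASB2 alone passed, with a slope of 0.55 ± 0.09 per step (log2, SE, 95% confidence interval 0.32 to 0.78, limma adjusted p = 0.0342). This call is lost without the 24 h array (adjusted p = 0.0866), for the second probe set (0.105), with the mean of both probe sets (0.0731), on log2 hours (0.105) and with the shift on all hybridisation controls (0.230). VSIR (0.40 ± 0.09, limma adjusted p = 0.0555) and LRG1 (0.40 ± 0.10, 0.0826) had upward slopes that missed the threshold in the limma fit. Without the 12 h array both pass, at an adjusted p of 0.0326 each.

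PRAM1 (0.16, interval -0.01 to 0.33) and LFNG (-0.10, interval -0.30 to 0.10) had intervals that include 0, with limma adjusted p of 0.217 and 0.497. TOGARAM2 had a slope of -0.21 (interval -0.41 to -0.01, limma adjusted p = 0.178). INAVA had the steepest downward slope of the 10, -0.80 (interval -1.22 to -0.38, limma adjusted p = 0.0566). It passes without the 12 h array (0.0203) or without the 48 h array (0.00718), and without the 72 h array its slope is -0.35 (0.0895). The intervals of PRAM1 and LFNG leave room for a change of up to 0.33 per step, so they do not show that the levels were constant.

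PLAAT4 rose with a slope of 1.21 ± 0.09 per step (limma adjusted p = 0.00966) and HIC1 with 0.98 ± 0.10 (limma adjusted p = 0.0140). The HIC1 call is lost on log2 hours (limma adjusted p = 0.0516) and for its second probe set (slope 0.28, limma adjusted p = 0.231). PLAAT4, HIC1 and LAMB3 had no step at 4 h, and their later values were known when they were chosen. Their slopes in particular are thus no independent evidence of a rise. LAMB3 had a slope of 0.90 ± 0.22 that missed the threshold (limma adjusted p = 0.0783). It passes without the 24 h array (0.0122), without the 48 h array (0.0285) or without the 72 h array (9.22e-05), while without the 12 h array, which holds the lowest of its 4 values, the slope is 0.35 (0.279).

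**Figure D4:**
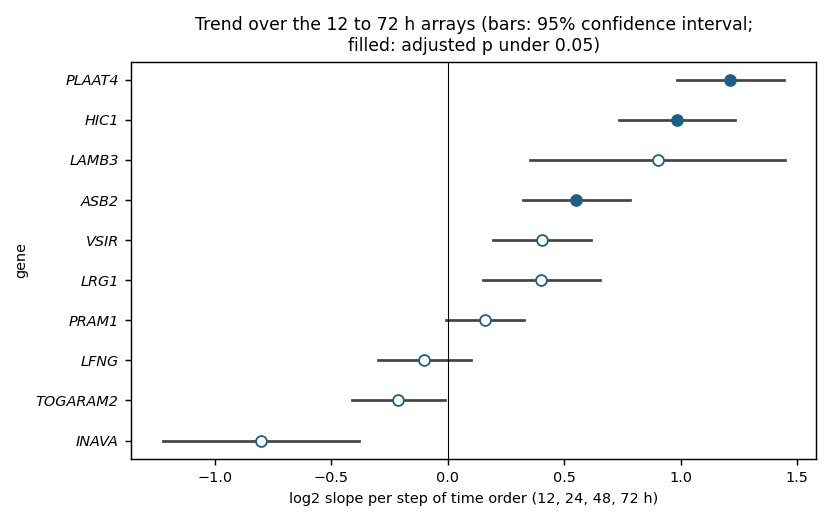
Slope of the log2 value per step of time order over the 12, 24, 48 and 72 h arrays (x axis) for each gene (y axis), with 95% confidence intervals as bars. The intervals reflect scatter of single arrays about the line, not the spread between replicate cultures. Filled points have a limma adjusted p under 0.05 over 13594 genes. PLAAT4, HIC1 and ASB2 pass, and INAVA has the lowest slope, -0.80.

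Other genes known to respond to retinoic acid were set beside these, on a list drawn up with earlier results of these data known. Of 18 kept genes on that list 13 were past 2-fold on the higher side at 4 h and 15 at 72 h. The shares over all kept genes were 1.74% and 10.9%. None of the 18 was 2-fold lower at any time. RARB (0.08), CRABP2 (0.04) and STRA6 (0.31) were under 2-fold at 72 h. RARRES1 (0.07 at 72 h) and RARRES2 (0.39) were measured too, but lay below the filter on every array and are not among the 18. RARB, CYP26A1, CYP26B1 and ID1 were below the filter in untreated cells and were kept only through ATRA arrays, which favours genes that rise. Their median difference was 1.65 at 4 h and 3.93 at 72 h, against 0.03 and -0.06 for all kept genes. ID1, which holds helix-loop-helix transcription factors away from DNA, was highest at 4 h, as LFNG was, with log2 levels of 3.55, 9.54, 9.46, 8.57, 8.01 and 8.07. CCL2, a chemokine, stepped up and went on like ASB2, reading 3.93, 9.21, 10.11, 10.36, 10.89 and 12.71. ICAM1, an adhesion molecule, was 7.61-fold above untreated at 4 h and 66.0-fold at 72 h. The transglutaminase TGM2 read 3.70, 5.03, 8.21, 10.40, 12.18 and 12.52, with a large part of its rise between 4 and 24 h, as LAMB3 had. ID2, a relative of ID1, was 2.14-fold above untreated at 4 h and 29.0-fold at 72 h. CYP26B1, a retinoic acid hydroxylase, was at least 1.33-fold higher at 4 h and at least 15.1-fold at 72 h, and it is among the 13 genes at 4 h only through an untreated value below the filter (2.72). One of 2 kept CYP26B1 probe sets and 3 of 4 kept TGM2 probe sets were 2-fold or more higher at 72 h.

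Partners and paralogues of the 10 genes mostly did not move with them at 4 h. At 4 h 2 of the 65 kept partners and paralogues were past 2-fold upward and 4 downward, against 1.74% and 1.81% of all kept genes, with a median difference of 0.09. At 72 h 14 were higher and 8 lower, against 10.9% and 12.2% of all genes. With the shift on all hybridisation controls 20 were higher at 4 h, so the small count depends on the scaling. That shift adds 0.71 to the 4 h difference of every gene, so the share of all genes past 2-fold can only rise with it. The share of all genes under the shift was not counted, and nothing about the partners is read from the 20.

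The other subunits of the ASB2 ligase were within 2-fold of untreated at every time. CUL5, the cullin, read 8.68, 8.99, 8.35, 8.80, 8.65 and 8.46, and RNF7, ELOB and ELOC differed from untreated by 0.33, -0.21 and -0.54 at 72 h. ASB2 was thus the one measured subunit of the complex past 2-fold. No relative in the ASB family was 2-fold higher at any time, and ASB13 (-1.19) and ASB1 (-1.08) were lower at 72 h.

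The partners of PRAM1 were under 2-fold at 4 h and mostly past it later. FYB1, its paralogue and a T cell and myeloid adaptor, read 5.79, 5.99, 6.83, 7.59, 8.53 and 9.47. The adaptors SKAP2 (7.70, 7.58, 9.10, 9.27, 9.87 and 10.03) and LCP2 and the kinase LYN were higher at 72 h by 2.33, 1.69 and 2.45, and by no more than 0.11 at 4 h. On this list of 5 genes none was 2-fold higher at 4 h, 3 were at 12 h (SKAP2 at 1.40, LCP2 at 1.15 and FYB1 at 1.04), 2 at 24 h, 3 at 48 h and 4 at 72 h. Over all kept genes the shares 2-fold higher at 4, 12, 24, 48 and 72 h were 1.74%, 2.30%, 3.35%, 5.83% and 10.9%. LCP2 was at 0.97 and 0.90 at 24 and 48 h. PRAM1 itself was 11.1-fold higher at 4 h. One of the 5 kept SKAP2 probe sets did not follow the others, at -0.33 at 72 h.

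Genes of the Notch pathway, which LFNG modifies, went separate ways. HES1, a repressor that Notch induces, read 6.10, 3.90, 4.33, 4.27, 3.63 and 3.68, with the drop at 4 h, where LFNG had its peak. The ligand JAG1 read 8.70, 6.50, 7.08, 7.38, 6.49 and 6.94, though at 72 h only 3 of its 6 kept probe sets were 2-fold or more lower. The ligand DLL1 read 5.82, 4.45, 4.99, 5.43, 6.77 and 8.61, lower at 4 h and higher at 72 h. Its second probe set moved by -0.04 at 4 h and by 0.26 at 72 h. NOTCH2, a receptor, was higher by 1.78 at 72 h, and NRARP, a feedback inhibitor, lower (-1.25). At 72 h 3 of the 4 kept NOTCH2 probe sets were 2-fold or more higher, with the lowest at 0.13. The other Fringe enzymes MFNG and RFNG differed from untreated by -0.21 and 0.38 at 72 h. Of 15 kept genes on this list 3 were 2-fold lower at 4 h, against 1.81% of all kept genes, and none higher, against 1.74%. The list median was -0.10.

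VSIR was 16.0-fold higher at 4 h, ahead of the other checkpoint genes measured. CD274, the ligand PD-L1, read 2.65, 3.24, 2.85, 2.67, 4.99 and 9.32 and was at least 50.5-fold higher at 72 h. In the other of its 2 kept probe sets the difference at 72 h was 2.64. LGALS9, a galectin described as a VSIR ligand, read 4.81, 5.16, 6.12, 7.14, 9.10 and 10.27, 44.0-fold higher at 72 h. CD86, a costimulatory ligand, was at least 3.74-fold higher at 72 h. SELPLG, on the same list, was higher by 1.36, 1.84 and 1.65 at 12, 24 and 48 h and by 0.81 at 72 h. CD80, CD276 and ICOSLG were within 2-fold at every time. Of the 7 kept genes on this list none was 2-fold higher at 4 h, against 1.74% of all kept genes, and 3 were at 72 h, against 10.9%.

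Among INAVA partners the cytohesins CYTH4 (4.15, 5.87, 5.99, 6.44, 5.95 and 6.94) and CYTH1 (4.90, 6.02, 5.64, 5.84, 6.24 and 7.73) were both 2-fold higher at 4 h, the only partners on any list that were. At 4 h 1 of the 2 kept CYTH1 probe sets (the other at 0.29) and 2 of the 3 kept CYTH4 probe sets (the lowest at 0.17) passed. Both were at their highest at 72 h, the time at which INAVA was lowest of the ATRA arrays. One of the 3 kept CYTH4 probe sets was under 2-fold at 72 h (0.70). RIPK2, a kinase of innate receptors, was higher by 1.49 at 72 h in one of its 2 kept probe sets and by 0.52 in the other.

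For LRG1, which acts on transforming growth factor beta signalling, the receptor TGFBR1 read 8.02, 6.92, 6.77, 6.59, 6.45 and 5.99. The receptor TGFBR2 was higher by 1.17 at 72 h, with its second kept probe set under 2-fold (0.89). For LAMB3, the laminin receptor subunit ITGA6 read 4.45, 3.80, 5.63, 5.80, 7.75 and 7.42. The laminin chain LAMC1 was lower at 72 h (-1.05, and -0.93 in its second kept probe set). Of 7 epithelial markers, which bear on LAMB3 as a gene of epithelia, 3 were kept. EPCAM read 5.86, 5.38, 5.22, 5.65, 5.27 and 4.42, and KRT8 and KRT18 lay between 4.07 and 4.86, while KRT5, KRT14, CDH1 and KRT19 were below the filter on every array. The part of other cells in the LAMB3 level was not tested. The summed linear level of the kept epithelial markers was 58.8 at 72 h and 99.9 in untreated cells.

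The remaining partners had smaller differences. Of the microtubule proteins related to TOGARAM2, CKAP5 alone was 2-fold lower at 72 h (-1.48). The corepressors of HIC1, its paralogue HIC2 and its target SIRT1 were within 2-fold at every time, with SIRT1 at 0.97 at 4 h. PLAAT2 and PLAAT3, the kept relatives of PLAAT4, differed from untreated by 0.03 and 0.27 at 72 h.

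**Figure D5:**
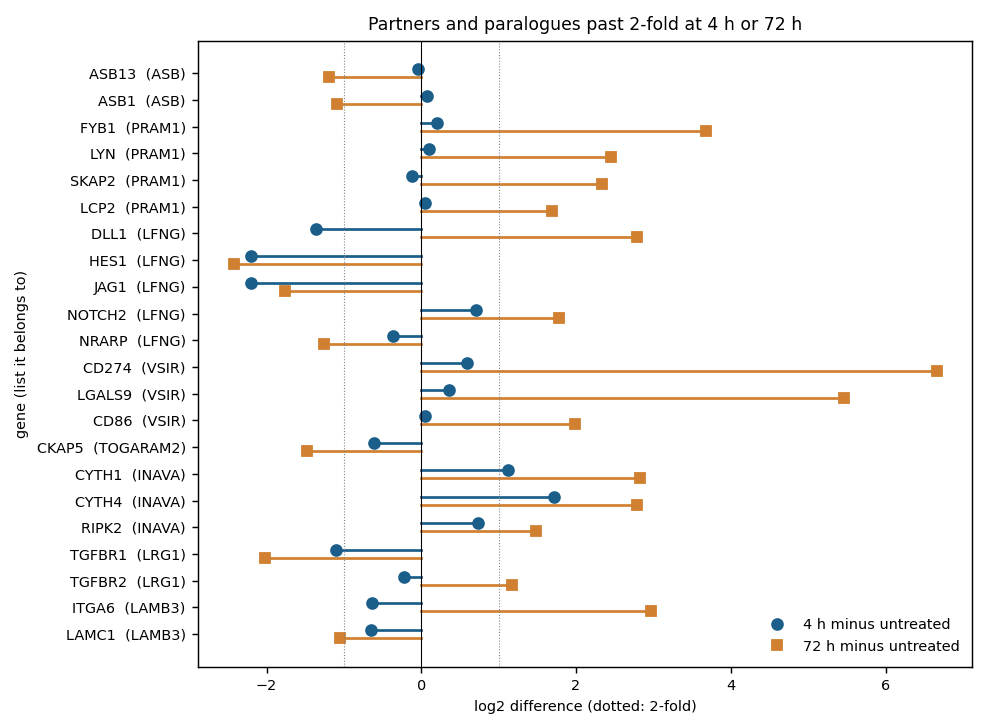
Log2 difference from untreated (x axis) at 4 h (blue circles) and at 72 h (orange squares) for the partners and paralogues past 2-fold at either time (y axis, with the list each belongs to). Dotted lines mark 2-fold. Differences are plotted as deposited, so that of CD274, whose untreated value is below the filter, is at least 50.5-fold as a bound, and LGALS9 is at 5.46, while at 4 h only CYTH1 and CYTH4 lie past 2-fold on the higher side.

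The genes whose 6 values ran most like each of the 10 were taken from 1099 genes with a span of 2 or more on the log2 scale. The likeness is Pearson's r over the 6 arrays, given as a description, since all pairs share the same arrays and most of the courses run one way. ASB2 was most like CCL2 (r = 0.999), followed by FLOT1 and CEBPE. PRAM1 was most like DRAM1 (0.994), FGR and PLCB2, VSIR like ELF4 (0.996), GFI1B and KSR1, and LRG1 like PTPRN2-AS1 (0.997), MYO1F and PPP1R18. LFNG was most like LOC101929305 (0.995), CXXC5 and CDKN2D, and TOGARAM2 like KIF21B (0.991), LOC101929305 and CEBPB. LAMB3 was most like PPP1R3B (0.995), the defensin gene DEFA4 and the oxidase gene CYBB. HIC1 was most like JAK2 (0.999), BST2 and ANXA2R-AS1, and PLAAT4 like THEMIS2 (0.999), KRCC1 and GRN.

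The number of near matches differed widely between the courses. HIC1 had 255 genes with r over 0.95 and PLAAT4 179, while LFNG had 8 and TOGARAM2 13. INAVA had none, and its nearest genes were TGM5 (0.920), ZCCHC24 and CDC42EP4. ZCCHC24 read 6.59, 8.66, 8.02, 8.16, 7.70 and 6.85, a step at 4 h and a return near the untreated level at 72 h. Within the 10 genes ASB2, PRAM1, VSIR and LRG1 had r between 0.982 and 0.994 with each other, and LFNG and TOGARAM2 0.982. The 10 genes were chosen from early rises in these data or as known ATRA targets. The untreated and 4 h arrays are part of r, so the step at 4 h enters these values through the choice. No shared course after 4 h is read from them.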

How the data were processed

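RNA from NB4 cells at 6 times was measured on 6 Affymetrix arrays, each placed at the time its label gives. The deposited log2 values are probe set summaries made with RMA by the authors, per the submitters' processing notes; its version is not given in the sources used here. Because RMA equalises the distributions, a shift shared by most transcripts cannot be seen, and the number of arrays limits the precision.

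Of 54675 probe sets 41091 had 1 gene and were no control, per the platform annotation, with symbols updated through Entrez identifiers (41037). The probe set of highest mean stood for a gene, and genes whose 6 values all lay under 3.66, the median of the whole table, were left out. Differences of single arrays have no p-value and were counted at 2-fold or more. Slopes on time order over the 12, 24, 48 and 72 h arrays were fitted with limma 3.58.1 in R 4.3.3 (eBayes with an intensity trend), with Benjamini-Hochberg adjustment over 13594 genes. Tables and figures were made in Python 3.11.15. The 10 genes, the gene lists and the tests were chosen with earlier results of these data known.

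Named genes were the 10 genes, up to 6 members of each list that were 2-fold or more higher or lower at 4 or 72 h, list members of small lists where needed, and the 3 genes of highest correlation with each. Lists covered other retinoic acid response genes, partners and paralogues of each gene, and markers of promyelocytes, monocytes, B cells, T and NK cells, erythroid, epithelial, and endothelial and fibroblast cells. Alternatives were cyclic loess, shifts to equal hybridisation controls with and without bioC, other probe set rules, filters, thresholds and baselines. Other time scales, other eBayes settings and leaving out arrays were also used. The shift on all controls equalised their median, and the shift without bioC equalised the mean of the remaining controls. The shifts therefore differ in the statistic as well as in bioC. The linear scale and single probe sets were added after seeing the data.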

Additional observations from a re-analysis of the deposited data

How the results depend on the processing

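No paired analysis was possible because each time has 1 array and the labels carry no replicate numbers. Of the counts recomputed under other settings 202 stayed within 1.5 times and 63 did not; of member slopes 5 reversed, 30 passed the threshold newly and 5 lost it, and causes were not tested unless given. Against the 4 h array 2 genes were 2-fold higher at 24 h. With the shift on all hybridisation controls 1 gene was higher at 12 h than at 4 h, 5 at 24 h than at 12 h and 1 at 72 h than at 48 h (1 without bioC), partners and paralogues numbered 20 higher and 2 lower at 4 h and 24 and 3 at 72 h, 6 genes had a falling trend, and the LFNG and TOGARAM2 slopes turned to 0.16 and 0.048. Without bioC, partners numbered 1 higher and 9 lower at 4 h, and 2051 genes and 2 of the 10 fell. Each shift moves all genes of an array alike, and the shares of all genes past 2-fold under the shifts were not counted. The partner counts under them are therefore no result about the partners. The mean of all probe sets gave 1 gene higher at 48 h than at 24 h, 1 partner higher at 4 h and 375 rising genes. At 1.5-fold 2 genes were higher at 24 h than at 12 h, 4 at 48 h than at 24 h, 1 was on a plateau and 2 declined, with 9 partners higher and 9 lower at 4 h. At 3-fold these counts were 1 at 12 h against 4 h, 0 at 48 h against 24 h, 0 at 72 h against 48 h, 4 on a plateau, 1 partner higher and 2 lower at 4 h and 3 lower at 72 h. Cyclic loess gave 5 partners lower at 72 h, 181 falling genes and 1 falling member; the percentile 75 filter also gave 1. With 48 h as the last time 0 declined. All kept probe sets gave 1026 rising and 239 falling, which tests more features. Hours gave 1214 and 618 (5 members rising, 1 falling) and log2 hours 78 and 7 (1 member rising). Arrays of 1 bioC level gave 1032 and 1205 (6 members rising), the 5 ATRA arrays 867 and 536 (7) and all 6 arrays 1132 and 1341 (7), with slopes of 0.44 for LFNG, 0.53 for TOGARAM2 and 0.15 for INAVA, since the step at 4 h is then part of the line. Leaving out 1 array gave 308 to 965 rising genes, 63 to 915 falling, 3 to 5 members rising and 0 to 1 falling.

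Single arrays limit every difference: a technical deviation of 1 array cannot be told apart from a change of the cells. Depth does not apply to arrays; untreated values of VSIR, TOGARAM2 and PLAAT4 lie near the filter level, where signal over background limits the fold.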
